A study of Mus musculus with 24 samples.

Results

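Long intergenic non-coding RNAs (lincRNAs) were described in total RNA of mouse liver under a change of diet and under antisense treatment. Chosen were the assembled features that Ensembl classed as lincRNA and that had at least 0.5 FPKM (fragments per kilobase of transcript, scaled to the mapped fragments of the library) in 1 or more of 4 groups, leaving out 10 well studied or separately named symbols such as Malat1 and LincIRS2. This gave 369 features of 314 genes, out of 5086 lincRNA features and 69905 features in all. Because the members were chosen by their FPKM values, all levels and differences of these values are given as a description, with no test.

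The series held 24 livers in 6 groups of 4, of which 4 groups (16 livers) were used, and the Mafg LNA NCD and LincIRS2 LNA HFD groups were not analysed here. All livers came from wild-type mice, given as C57BL/6 and 18 weeks of age by the sample labels and as C57BL/6N in the study's methods, that had carried a locked nucleic acid (LNA), an antisense oligonucleotide that lowers a chosen transcript, for 12 weeks. Scr LNA NCD mice received the control LNA on the diet labelled NCD, the control diet, in which fat supplied 11%, carbohydrate 62% and protein 27% of the energy. Scr LNA HFD mice received the control LNA on a high-fat diet (HFD), with 54%, 22% and 24% for these nutrients. Mafg LNA HFD mice received an LNA against the small MAF transcription factor MAFG on HFD, and LincIRS2 LNA NCD mice an LNA against the lncRNA LincIRS2 (4833411C07Rik) on NCD. Diets began at 6 to 7 weeks of age. The LNAs were given to the whole animal, and the study's methods describe an older age and a longer LNA course than the labels do, as well as an injection of insulin or saline before tissue was taken, which the labels do not give for each liver.

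Each group was deposited as 1 pooled value per feature, without values of single livers or read depth. No spread between livers could therefore be given for any value, and no difference could be set against it. Where 4 values are given without group names, they follow the order Scr LNA NCD, Scr LNA HFD, Mafg LNA HFD, LincIRS2 LNA NCD. LincIRS2 itself was listed at 0.558, 0.213, 0.483 and 0.345 FPKM, and Mafg was not analysed here, so that whether the Mafg LNA lowered its target was not checked in these data. Markers fixed for 9 liver cell types were summed over each type. The 10 hepatocyte markers had a feature each, 8 of them at 0.5 FPKM or more, but Alb was listed at 0 in 3 of the 4 groups and Ttr at most at 0.0403 FPKM, so a listed 0 cannot be read as an absent transcript. The 5 neutrophil markers summed to 15.4, 1.55, 5.88 and 1.53 FPKM, and the 10 macrophage markers to 52.1, 31.4, 43.3 and 28.5. The 5 antigen presentation markers summed to 17.4, 9.41, 29.3 and 8.23 FPKM, and the 5 erythroid markers to 2045, 1950, 901 and 2032, with Mafg LNA HFD the lowest. The part of these cell types in the lincRNA differences given here was not tested, and in whole liver fewer cells of a type cannot be told apart from less RNA per cell.

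LincRNAs are transcribed from loci between protein-coding genes and are mostly capped and spliced like mRNAs, but are usually less abundant and more restricted to certain tissues. Some act on neighbouring genes at their site of transcription, others bind proteins or RNAs elsewhere in the cell, and still others serve as precursors of small RNAs. MAFG binds DNA as a dimer, with CNC partners such as NRF2 at antioxidant response elements or with another small MAF at MAF recognition elements.

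Promoters are shown for the 4 members of largest difference that had a RefSeq entry within 1000 bases of the Ensembl start of their gene, with the elements bound by MAFG dimers marked. The differences that chose AC158554.1, 9030622O22Rik and Gm35164 came from features inferred on the opposite strand, so that the promoter shown is that of the annotated gene and not of the feature. Each window runs from 250 bases before to 50 bases after the RefSeq start on the strand of the gene, 5′ to 3′, in GRCm38. Capitals mark matches to TGACNNNGC, which is part of an antioxidant response element, or to TGCTGA, which is part of a MAF recognition element, on either strand. The motifs may overlap by the bases TGA. The windows were chr13:39791335-39791634 for Gm40923, chr15:97167195-97167494 for AC158554.1 (Gm32885 in GENCODE M21), chr2:148040299-148040598 for 9030622O22Rik, all on the minus strand, and chr14:28649463-28649762 on the plus strand for Gm35164.
Gm40923: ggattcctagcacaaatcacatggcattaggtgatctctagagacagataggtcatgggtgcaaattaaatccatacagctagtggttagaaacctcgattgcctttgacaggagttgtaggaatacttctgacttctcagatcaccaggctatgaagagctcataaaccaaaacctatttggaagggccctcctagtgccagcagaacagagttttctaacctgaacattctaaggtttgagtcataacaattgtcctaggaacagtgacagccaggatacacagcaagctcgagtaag
AC158554.1: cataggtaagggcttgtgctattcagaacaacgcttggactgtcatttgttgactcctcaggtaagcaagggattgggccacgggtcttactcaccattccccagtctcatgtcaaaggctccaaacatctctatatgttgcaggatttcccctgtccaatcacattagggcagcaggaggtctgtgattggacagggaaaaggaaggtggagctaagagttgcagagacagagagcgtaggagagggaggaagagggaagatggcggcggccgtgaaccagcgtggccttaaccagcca
9030622O22Rik: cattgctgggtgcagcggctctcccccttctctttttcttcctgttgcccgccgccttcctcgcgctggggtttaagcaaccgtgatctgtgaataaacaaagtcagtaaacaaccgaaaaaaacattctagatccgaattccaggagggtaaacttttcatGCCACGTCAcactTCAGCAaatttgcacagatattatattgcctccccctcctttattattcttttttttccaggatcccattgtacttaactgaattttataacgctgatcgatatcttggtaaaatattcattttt
Gm35164: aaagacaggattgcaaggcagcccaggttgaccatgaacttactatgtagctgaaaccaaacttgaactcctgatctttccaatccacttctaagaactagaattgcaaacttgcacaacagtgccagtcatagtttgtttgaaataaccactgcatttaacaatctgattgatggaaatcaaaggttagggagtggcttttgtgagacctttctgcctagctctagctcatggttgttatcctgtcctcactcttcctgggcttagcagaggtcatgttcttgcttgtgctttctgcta
Among these windows, 9030622O22Rik held 1 match to each motif, both on the reverse strand, starting 88 and 75 bases before the RefSeq start, and the other windows held neither. Of the 314 genes, 100 had a promoter entry within 1000 bases of their start. TGACNNNGC was found in 16 of these 100 windows, compared with 12.5% of 27025 promoters of the table, and TGCTGA in 22, compared with 19.1%. Both shares were within a few percentage points of those of all promoters. Members had the window nearest to the Ensembl start, and the promoters of the table the first window listed per gene. A match is not a measured binding site.

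The transcript of AC161763.1 is shown whole because its feature was the most abundant member without an overlapping gene of the kinds searched. Searched were coding, small RNA, immunoglobulin segment and pseudogene annotations. The abundant feature was inferred on the strand opposite to the gene, so the sequence shown is that of the annotated gene and not of the feature. The gene ID of AC161763.1 carries the symbol Bc1 in GENCODE M21. BC1 is a short RNA polymerase III transcript of rodents, best known from neurons as a repressor of translation, and its 5′ part resembles the ID family of repeats, so reads could be shared with other copies. The gene is at chr7:144914470-144914637 on the plus strand in GRCm38, and capitals mark its longest run of A, 23 bases at positions 77 to 99 of 168.
AC161763.1: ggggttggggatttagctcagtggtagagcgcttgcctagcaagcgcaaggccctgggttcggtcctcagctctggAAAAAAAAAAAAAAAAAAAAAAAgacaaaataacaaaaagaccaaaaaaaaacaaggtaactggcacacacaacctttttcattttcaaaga

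Most expressed lincRNAs were near the lower limit. The mean over the 4 groups had a median of 0.874 FPKM and ran from 0.175 to 183, and 200 of the 369 features had a mean below 1 FPKM. Of all lincRNA features 7.33% reached the limit of 0.5 FPKM, compared with 22% of antisense, 8.03% of processed pseudogene and 35.6% of protein-coding features. The limit was met in all 4 groups by 224 members, in 3 groups by 40, in 2 by 36 and in a single group by 69. Just inside it were AC158605.1 (0.501 FPKM in its highest group), Gm46224 (0.501) and AI838599 (0.502), and just outside were Gm13021 (0.4998), 4632428C04Rik (0.498) and Platr22 (0.497, another feature of which was a member). The 10 most abundant features held between 53.2% and 55.2% of the summed FPKM of all members in each group.

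The genes were often not isolated. In GENCODE M21, 302 of 313 matched genes were still lincRNAs, but 80 of the 314 shared exon bases with a protein-coding gene on the opposite strand, 13 with a pseudogene on the opposite strand, 4 with a small RNA gene on the opposite and 3 on the same strand, 2 with a coding gene on the same strand, and 38 overlapped a gene body without sharing exon bases. No such overlap was found for 174 genes, and overlap with other lncRNA genes was not searched. The nearest protein-coding gene lay at a median distance of 1898 bases. For 44 genes the start lay within 1 kb of the start of a coding gene on the opposite strand. Of the assigned transcripts 28 had 1 exon, 149 had 2 and 137 had 3 or more.

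The strand of a feature is not given in the tables and was inferred from the order of feature numbers along each chromosome. By this inference 210 of the 369 members (56.9%) lay on the strand of their gene and 159 (43.1%) on the other. For protein-coding features of at least 0.5 FPKM the share on the gene's own strand was 28.6%, and 71.4% lay opposite. Whether the strand was set the other way round when the features were assembled or quantified was not tested, so that each statement on a gene's own or opposite strand holds only for the strand as inferred. Among members that shared exon bases with a coding gene on the opposite strand, 91.8% lay on the lincRNA's strand, compared with 43.1% of those with no overlap. Levels of the overlapped coding genes were set beside them for 79 such features. The lincRNA feature exceeded the highest feature of the coding gene in 56 of 79 and exceeded it by over 10 times in 33, while 44 of the coding genes were listed below 0.5 FPKM. Gm26697, which overlaps Slc27a2, an acyl-CoA synthetase of hepatocytes, was listed at 64.4, 61.7, 48.4 and 61.8 FPKM, whereas Slc27a2 was listed at 0.0584, 0.110, 0.0835 and 0.0947. Gm26669 (mean 27.4 FPKM) overlaps Zfp36l1, an mRNA decay factor. From which of the overlapping genes these reads came was not tested.

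**Figure D1:**
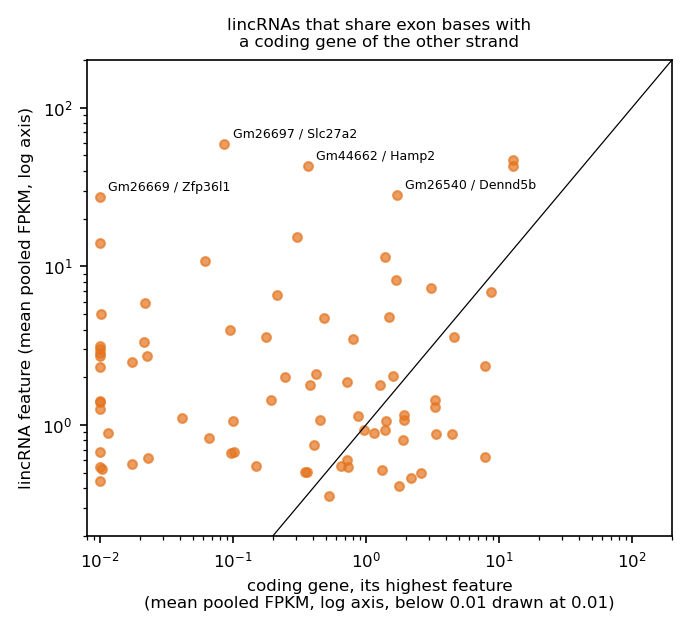
Mean pooled FPKM of 79 lincRNA features that share exon bases with a protein-coding gene of the other strand (vertical, log axis) against the highest feature of that gene (horizontal, log axis, values below 0.01 drawn at 0.01). Each point is 1 feature and the line marks equal levels. In 56 of 79 features the lincRNA lies above the line.

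Among the 10 most abundant features 8 shared exon bases with another gene. Gm47162, which lies opposite to a pseudogene of the sterol carrier Scp2, had the highest mean and was listed at 167, 220, 171 and 176 FPKM. Gm17300 lies opposite to Snora73b, a small nucleolar RNA, and had 130, 151, 191 and 159 FPKM. Gm28872 shares 84.8% of its exon bases with Rnu11, the U11 RNA of the minor spliceosome, on the opposite strand and had 107, 127, 130 and 108 FPKM. In each of these features the highest and the lowest group differed by under 2-fold, as in 270 (74%) of the 365 members above 0 in every group. The pair of features of Gm26584, opposite to the cationic amino acid transporter Slc7a2, ranged from 45.2 to 48.0 and from 38.7 to 47.0 FPKM.

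Gm44662 shares exon bases with Hamp2 and overlaps Hamp, the hepcidin genes, and had 55.9, 43.7, 28.1 and 43.7 FPKM. Hamp, which encodes the iron hormone hepcidin, was listed at 606, 661, 368 and 501 FPKM, also with Mafg LNA HFD the lowest. Gm32281, which lies 744 bases from the progestin and adipoQ receptor gene Paqr9, ranged from 36.2 to 41.4 FPKM, and Gm26540, opposite to Dennd5b, from 22.5 to 31.0. AC161763.1 (Bc1) differed most among the 10, with 73.5 FPKM in Scr LNA NCD against 157, 154 and 148 in Scr LNA HFD, Mafg LNA HFD and LincIRS2 LNA NCD. This Bc1 feature lay on the strand opposite to the gene, and the Bc1 feature on the strand of the gene was listed at 0, 0.744, 0.370 and 0. The group on NCD with the control LNA thus held less than the other 3 groups.

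**Figure D2:**
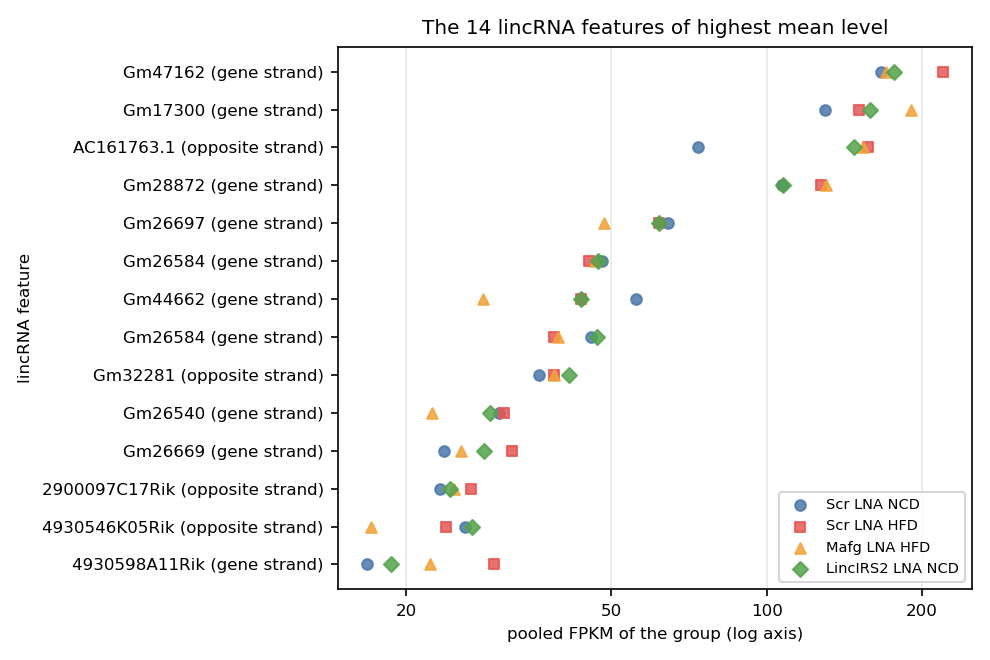
Pooled FPKM (log axis) of the 14 lincRNA features of highest mean level, 1 marker per group, with the inferred strand relative to the gene in brackets. AC161763.1 (Bc1) stands at 73.5 in Scr LNA NCD and between 148 and 157 in the other groups, while the groups lie close together for most of the others.

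Over all 365 members with a value above 0 in every group, the highest and the lowest group differed by a median of 1.5-fold on the scale of FPKM + 0.1, and by under 2-fold in 270 (74%). Listed at 0 in at least 1 group were 4 features. Gm48228 had 6.51 FPKM in Mafg LNA HFD and 0 in the other groups for 1 of its features, while its other feature ranged from 5.54 to 8.57. Gm28548 was listed at 0.535 and 0.811 FPKM in Scr LNA NCD and LincIRS2 LNA NCD and at 0 in both HFD groups. The remaining such features were the Bc1 feature on the gene's strand and 1 feature of Gm28347.

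Scr LNA HFD was compared with Scr LNA NCD to ask which lincRNAs differed with diet under the control LNA. Of 365 members above 0 in both groups, 28 (7.67%) were at least 2-fold higher on HFD on the log2(FPKM + 0.1) scale, compared with 3.46% of all 15153 features with the same limits. At least 2-fold lower were 12 (3.29%), compared with 2.77%. The median log2 difference of the members was 0.14, compared with 0.01 over all features and 0.01 over protein-coding features. For antisense features the shares were 1.51% higher and 2.02% lower with a median of -0.02, and for processed pseudogenes 2.61% and 2.2% with a median of -0.03. The median over all members thus lay above those of these classes. The same values chose the members, of which 308 reached 0.5 FPKM in Scr LNA HFD and 272 in Scr LNA NCD. By inferred strand, the median was 0.24 for the 159 members opposite to their gene, 18 of which were at least 2-fold higher, and -0.0023 for the 206 on the gene's strand, with 10. The 85 members that share exon bases with a coding gene on the opposite strand had a median of -0.06 and none at least 2-fold higher. Among members with 0.5 to 1 FPKM in their highest group 10.9% were at least 2-fold higher, compared with 4.73% of all features of this level, and among those of 5 FPKM or more 6.67%, compared with 3.53%.

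The higher features were mostly of low level and on the opposite strand. The 28 belonged to 22 genes. Of these features 18 did not reach 1 FPKM in any group and 18 lay opposite to the strand of their gene. For 22 of the 28 features no overlapping gene of the kinds searched was found, as for 10 of the 12 lower features and 213 of all 365 members compared. Gm40923 differed most, at 0.0479 FPKM in Scr LNA NCD and 1.57 in Scr LNA HFD (log2 difference 3.50), with 1.82 in Mafg LNA HFD and with 0.465 in LincIRS2 LNA NCD. Its feature on the other strand had 0.0629, 0.519, 0.678 and 0.171 FPKM. Both strands of Gm40923 were thus higher in both HFD groups than in both groups on NCD, and the same order was seen for the 2 features of Gm45086 (0.0187, 0.693, 0.790 and 0.0452 FPKM for the first, 0.0764, 0.533, 0.717 and 0.171 for the second).

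Gm12718 was listed at 0.0500 FPKM in Scr LNA NCD and 1.35 in Scr LNA HFD (log2 difference 3.27), and at 0.125 in Mafg LNA HFD and at 0.353 in LincIRS2 LNA NCD. Lncbate1, a lncRNA described in brown adipocytes that overlaps the homeobox gene Zfhx3, had 4 member features. All 4 were highest in Scr LNA HFD. The Lncbate1 feature of largest difference, on the opposite strand, had 0.0557, 0.991, 0.107 and 0.0985 FPKM (2.81). Summed over the 4, Lncbate1 had 1.80, 5.34, 2.83 and 2.23 FPKM, while Zfhx3 ranged from 1.84 to 2.15. Gm35164 on the opposite strand had 1.18, 5.27, 1.36 and 1.58 FPKM (log2 difference 2.07), and AC158554.1, also on the opposite strand, had 0.000110, 0.567, 0.134 and 8.73e-129. In each of these features Scr LNA HFD was above the other 3 groups. Gm12718, this Lncbate1 feature and AC158554.1 reached 0.5 FPKM in Scr LNA HFD alone, so for them this order followed from how members were chosen. The Gm35164 feature of the gene's strand was lowest in Scr LNA HFD.

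Features of 1 gene did not always go together. Gm6135, a lincRNA gene on chromosome 3, had a feature on the opposite strand with 0.399, 4.14, 0.879 and 0.626 FPKM (log2 difference with diet 3.09) and 1 on the gene's strand with 0.201, 1.37, 0.702 and 0.492 (2.28). The other feature of Gm6135, also on the opposite strand, had 1.97, 2.04, 4.12 and 0.236 FPKM and a difference of 0.05 with diet. Summed, Gm6135 had 2.57, 7.54, 5.70 and 1.35 FPKM.

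On the lower side, Gm28182 on its gene's strand had 2.05 FPKM in Scr LNA NCD and 0.5002 in Scr LNA HFD (log2 difference -1.84), with 0.451 in Mafg LNA HFD and with 1.61 in LincIRS2 LNA NCD. Its 3 other features differed by -0.21, 0.09 and 0.63, and the sum of the 4 was 5.07, 3.60, 3.55 and 2.43 FPKM. AC169509.3 (Gm31583 in GENCODE M21), whose nearest coding gene was the repressor Bcl6, was lowest in Scr LNA HFD for both of its features, with 1.28, 0.448, 1.36 and 1.71 FPKM for the feature on the gene's strand and 4.82, 2.76, 5.79 and 7.33 for the other. Bcl6 itself lies 96231 bases away and was listed below 0.5 FPKM in every group, at 0.174, 0.0971, 0.349 and 0.239. Gm47467 had 2.69 FPKM in Scr LNA NCD and 1.05 in Scr LNA HFD (-1.28), and Gm12319, beside the profilin gene Pfn1, 0.688 and 0.200 (-1.39), while Pfn1 had 25.8 and 27.1. Gm30211, which overlaps the gene body of the immunoglobulin segment Igkj1, had 2.11 FPKM in Scr LNA NCD and 0.788, 0.971 and 0.873 in the other groups, in the order Scr LNA HFD, Mafg LNA HFD and LincIRS2 LNA NCD. Gm48199, Gm17276 and the feature of 1700080G11Rik on its gene's strand had log2 differences of -1.25, -1.24 and -1.23.

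**Figure D3:**
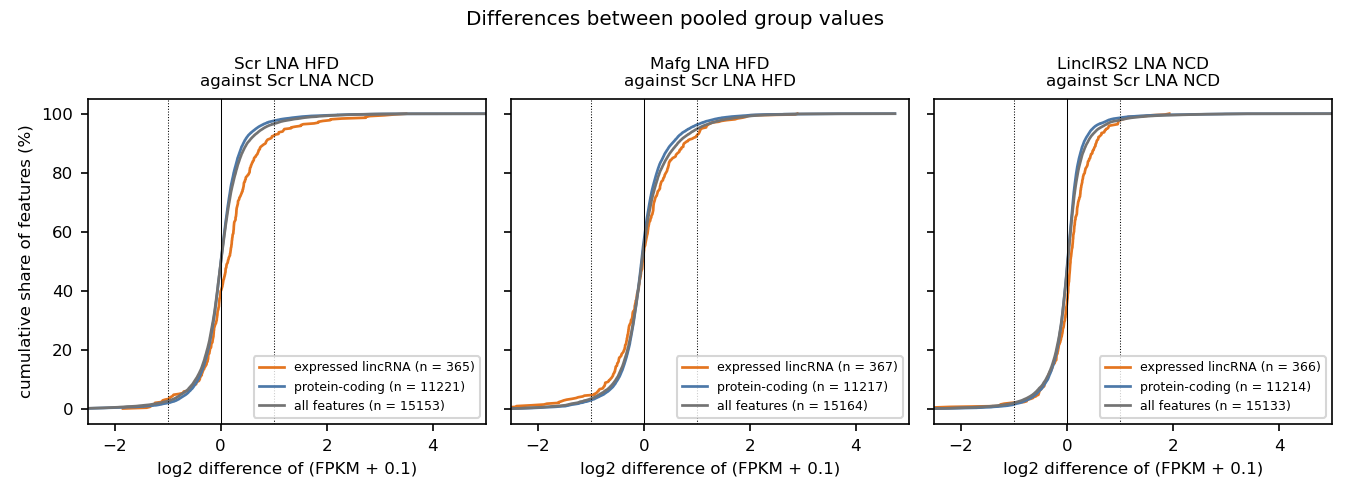
Cumulative share of features (vertical, %) against the log2 difference of (FPKM + 0.1) between pooled group values, for expressed lincRNA, protein-coding and all features of at least 0.5 FPKM, in 3 comparisons. Dotted lines mark 2-fold. With diet the lincRNA curve lies to the right of the others at the median (0.14 against 0.01) but not in the lower tail. There 3.29% of lincRNA features were at least 2-fold lower, compared with 2.77% of all and 2.15% of protein-coding features. With Mafg LNA it also crosses them.

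Mafg LNA HFD was compared with Scr LNA HFD to ask which lincRNAs differed under an LNA against Mafg on HFD. This comparison shares Scr LNA HFD with that of diet, so a high or low value of that group enters both with opposite sign, and each is given by its own values. Of 367 members above 0 in both groups, 28 (7.63%) were at least 2-fold higher with Mafg LNA, compared with 5.19% of all 15164 features, and 17 (4.63%) at least 2-fold lower, compared with 3.54%. The median log2 difference was -0.02, compared with -0.03 over all features, and became 0.02 when centred on the protein-coding features. These shares depended on strand, level and scale. On the gene's strand 12 of 208 members (5.77%) were at least 2-fold higher and 2 (0.962%) lower. On the opposite strand 16 of 159 (10.1%) were higher and 15 (9.43%) lower. By level in their highest group, members were higher in 8.98% at 0.5 to 1 FPKM and 10.8% at 1 to 2. The share was 2.78% at 2 to 5 FPKM and 4.44% at 5 or more. For all features of these 4 levels the shares were 8.23%, 3.96%, 3.09% and 2.78%. With a pseudocount of 1 FPKM 2 members were higher and 5 lower, but the share of all features on that scale is not given. Of the 28 higher members 26 had no overlapping gene of the kinds searched, as did 13 of the 17 lower and 215 of all 367 members compared. None of the 85 members that share exon bases with a coding gene on the opposite strand was past 2-fold in either direction.

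Gm15611 was the most abundant of the higher features, with 2.30 FPKM in Scr LNA HFD and 9.51 in Mafg LNA HFD (log2 difference 2.00), and with 4.42 in Scr LNA NCD and 8.75 in LincIRS2 LNA NCD. It lies 1078 bases from Crot, a peroxisomal carnitine acyltransferase, which had 68.4 and 63.6 FPKM in the 2 groups compared. Gm47713 had 0.0484 FPKM in Scr LNA HFD and 1.01 in Mafg LNA HFD (2.90), with 0.0297 in Scr LNA NCD and 0.0917 in LincIRS2 LNA NCD, and Gm45349 had 0.0727 and 1.15 (2.86), with 0.222 and 0.235. In all of these Mafg LNA HFD was the highest of the 4 groups, as it was for Gm35190 (0.166 to 0.933 FPKM between the groups compared), Gm36972 (0.115 to 0.717), Gm32468 (0.307 to 1.38), Gm28347 on its gene's strand (0.0840 to 0.526) and Gm13166 (0.118 to 0.547). All of these except Gm15611 reached 0.5 FPKM in Mafg LNA HFD alone. For those features this order followed from how members were chosen. The 3 features of Gm13844, all on the opposite strand, differed by 1.07, 1.07 and 1.46, and the 2 features of AC169509.3 by 1.42 and 1.04.

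9030622O22Rik, whose gene lies 2674 bases from Foxa2, which encodes a pioneer factor of hepatocytes, had 4.46 FPKM in Scr LNA HFD and 0.754 in Mafg LNA HFD (log2 difference -2.42) on the opposite strand, with 3.19 in Scr LNA NCD and 2.35 in LincIRS2 LNA NCD. The feature of 9030622O22Rik on its own strand was listed at 0.843, 0.703, 0.480 and 1.44 FPKM. Both 9030622O22Rik features were lowest in Mafg LNA HFD. Foxa2 had 3.96, 4.19, 2.89 and 3.32 FPKM and was also lowest there. The 2 features of Gm31121 were lowest in Mafg LNA HFD as well, with 1.31, 1.96, 0.174 and 2.64 FPKM for the first (-2.91) and 0.851, 0.557, 0.125 and 1.20 for the second (-1.55). Gm46348 had 0.765 FPKM in Scr LNA HFD and 0.144 in Mafg LNA HFD (-1.82), and Gm45733 0.566 and 0.119 (-1.60), each with intermediate values in the groups on NCD. Gm12718, Lncbate1, Gm6135 and Gm35164, the features of which with the largest difference with diet are described there, differed by -2.69, -2.40, -2.11 and -1.88 for those features, and for these Scr LNA HFD was the highest of the 4 groups. Over its 4 features summed, Lncbate1 differed by -0.89.

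LincIRS2 LNA NCD was compared with Scr LNA NCD to ask which lincRNAs differed under an LNA against LincIRS2 on NCD. Of 366 members above 0 in both groups 9 (2.46%) were at least 2-fold higher, compared with 2.15% of all 15133 features, and 8 (2.19%) at least 2-fold lower, compared with 2.17%, so that both shares were near the background. The median log2 difference was 0.07, compared with 0.02 over all features, and 237 of 366 members (64.8%) were above 0, compared with 53.4%. Members past 2-fold were fewer than in the other comparisons.

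Bc1 (AC161763.1) was among the 9 higher features, with the values given above (log2 difference 1.01). AW112010, an RNA that is induced in immune cells by inflammatory stimuli, had 3.99 FPKM in Scr LNA NCD and 9.0 in LincIRS2 LNA NCD (1.15) for the feature of its own strand, with 10.2 in Scr LNA HFD and 13.9 in Mafg LNA HFD. Its feature on the opposite strand had 3.27 FPKM in Scr LNA NCD and 3.19 in LincIRS2 LNA NCD, and 5.13 and 8.43 in the HFD groups. The summed antigen presentation markers were lower in LincIRS2 LNA NCD (8.23 FPKM) than in Scr LNA NCD (17.4), and both these markers (29.3) and AW112010 were highest in Mafg LNA HFD. Their part in the AW112010 values was not tested. Gm35164 on its own strand was listed at 0.0705, 0.0525, 0.403 and 0.518 FPKM (1.86 between the groups compared). AC116487.1 had 0.245 and 0.850 FPKM in the groups compared (1.46), 2700033N17Rik 0.225 and 0.603 (1.11) and Gm40787 0.551 and 1.25 (1.05). The remaining 3 of the 9, Gm40923, Gm12718 and 4930459C07Rik, were below 0.5 FPKM in both groups compared.

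Among the lower features AL732506.1 had 2.01 FPKM in Scr LNA NCD and 0.000375 in LincIRS2 LNA NCD (log2 difference -4.39), with 4.42 in Scr LNA HFD and 3.16 in Mafg LNA HFD. Its gene ID has the symbol Rmrp in GENCODE M21, the RNA of the RNase MRP complex that processes ribosomal RNA precursors, and the feature shares 96.4% of its exon bases with a second annotation of Rmrp on the same strand. How reads were divided between these annotations was not tested. The feature of Gm6135 that was near 2 FPKM in both Scr groups had 1.97 and 0.236 FPKM (-2.62), and 1 feature of Gm28182 on each strand 1.58 and 0.265 (-2.20) and 1.14 and 0.403 (-1.30). Gm48199 had 1.10 and 0.401 FPKM (-1.27), Gm26541 0.693 and 0.233 (-1.25), Gm30211 2.11 and 0.873 (-1.18) and 1700003I16Rik 0.844 and 0.357 (-1.05). Gm48199 and Gm30211 were also among the 8 lowest with diet, and both had their highest value of the 4 groups in Scr LNA NCD, the group that these comparisons share.

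**Figure D4:**
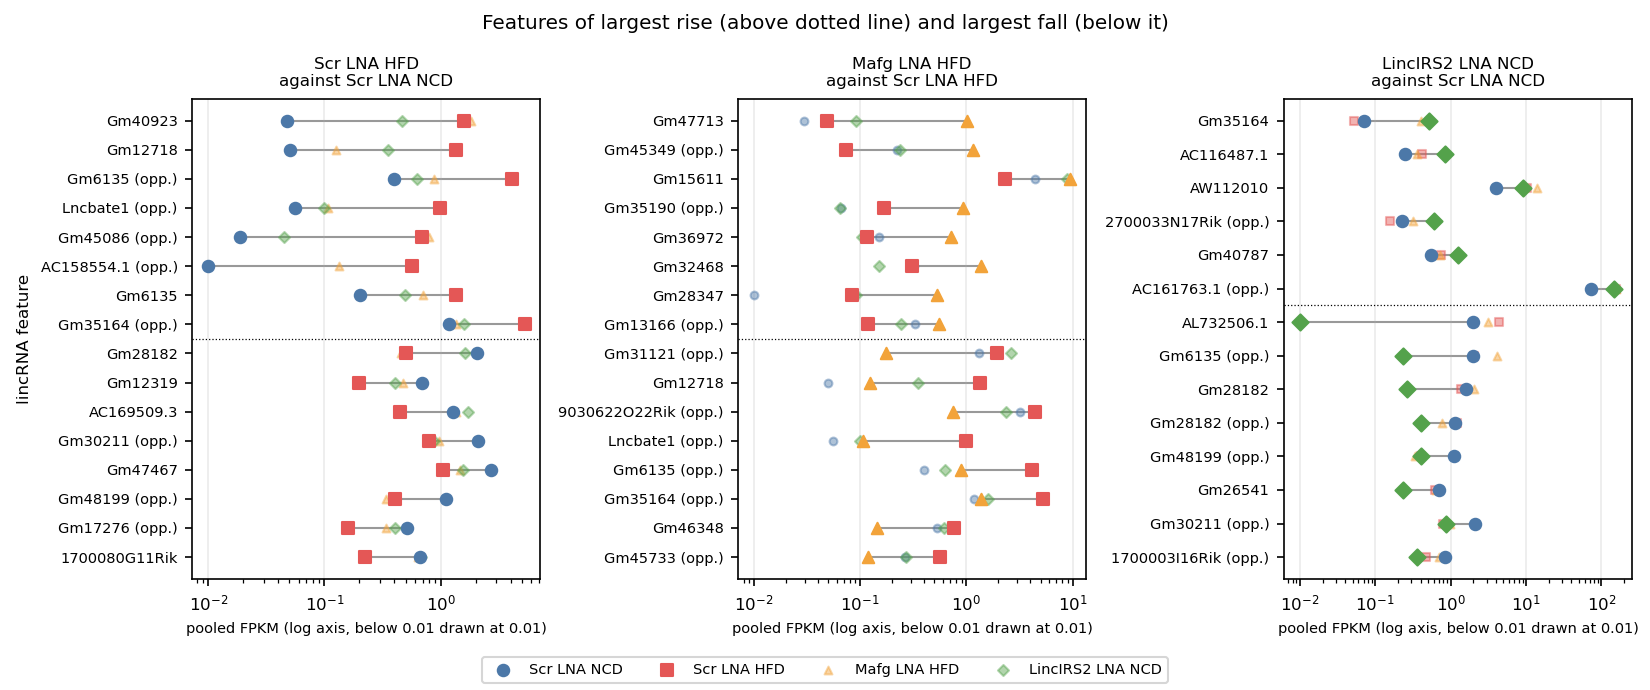
Pooled FPKM (log axis, values below 0.01 drawn at 0.01) of the lincRNA features with the largest differences in each of 3 comparisons, higher above the dotted line and lower below it. Large markers joined by a line are the groups compared, small markers the other groups, and (opp.) marks features on the strand opposite to their gene. Gm12718 stands at 1.35 in Scr LNA HFD and at 0.353 or less elsewhere.

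Mafg LNA HFD against Scr LNA HFD and LincIRS2 LNA NCD against Scr LNA NCD share no group. Of the 28 features higher with Mafg LNA, Gm35164 on its gene's strand was also among the 9 higher with LincIRS2 LNA, which is 3.57% of the former and 11.1% of the latter. Of the 17 lower with Mafg LNA, 4930459C07Rik and Gm12718 were among the 9 higher with LincIRS2 LNA (11.8% and 22.2%). Over all 366 members 2.46% were higher with LincIRS2 LNA, and counts this small are given as a description only.

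Next to the LincIRS2 gene (chr8:10899922-10903893) lay a pair of members on the minus strand, which were singled out after their values had been seen. Gm2814 (chr8:10898169-10900558) overlaps the start of LincIRS2 and had 0.841, 0.389, 0.698 and 0.574 FPKM. Gm45044 (chr8:10884453-10891591) had 1.16, 0.510, 1.28 and 1.41 FPKM. Both were lowest in Scr LNA HFD, as LincIRS2 was, while with LincIRS2 LNA Gm2814 was lower and Gm45044 higher than in Scr LNA NCD. The strands are as inferred, and whether reads listed for Gm2814 came from the overlapping LincIRS2 was not tested.

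Lists of known non-coding RNAs had few members. Of the snoRNA host genes Epb41l4aos had 9.54, 6.21, 5.52 and 7.14 FPKM, while the values listed for Snhg20 were 3.06, 3.96, 4.93 and 3.21, and Snhg18 had 0.344, 0.374, 0.621 and 0.342. None of the 3 was past 2-fold in any comparison. Jpx, an activator of Xist, ranged from 1.23 to 1.81 FPKM. The broadly expressed 2900097C17Rik (Norad), which binds Pumilio proteins, ranged from 23.2 to 26.7 FPKM and 1700020I14Rik from 1.13 to 1.44. Of the immune-induced list, AU020206 ranged from 1.12 to 1.68 FPKM, and AW112010 on its gene's strand was past 2-fold higher with diet (log2 difference 1.33) and with LincIRS2 LNA. These comparisons share Scr LNA NCD, where this AW112010 feature was lowest, so the differences are not independent. The liver metabolism list held Gm8883, with 1.56, 1.99, 1.38 and 2.26 FPKM, and 9030622O22Rik, which was past 2-fold lower with Mafg LNA on the opposite strand. The lists of microRNA hosts, imprinted transcripts and p53 and damage related RNAs had no member. Except for Epb41l4aos, 1700020I14Rik, Gm8883 and those of AW112010 and 9030622O22Rik named by strand, the listed values came from features inferred to lie opposite to the strand of the named gene.

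Where a gene had features on both strands, the strands were compared. This applied to 28 genes, in 12 of which the highest feature lay on the gene's strand. Across these genes the log2 differences of the highest feature of each strand had Pearson's r of 0.47 with diet (n = 26), 0.22 with Mafg LNA (n = 28) and 0.21 with LincIRS2 LNA (n = 26). Genes are not independent replicates, and both features come from the same livers. Neighbouring coding genes within 10 kb or overlapping, with at least 0.5 FPKM, gave r of -0.03 with diet (n = 119), 0.22 with Mafg LNA (n = 120) and -0.07 with LincIRS2 LNA (n = 119). For neighbours farther than 100 kb r was -0.28, 0.47 and 0.09 (n = 18 each).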

How the data were processed

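Total RNA of mouse liver was depleted of rRNA and sequenced with a strand-specific library. The authors trimmed reads with flexbar, removed rRNA reads with Bowtie2 2.2.9, aligned to mm10 (GRCm38) with STAR 2.6.0c, and assembled, merged and quantified transcripts with Cufflinks 2.2.1 and Cuffdiff, annotated with Ensembl 90. The deposited FPKM values were pooled by the authors over the 4 livers of a group, and the group columns shared by a pair of the 3 tables were identical. The tables also hold the authors' fold changes, test statistics, p and q values, which were not used. They contain no counts, so depth is unknown and no interval, SD or test was computed.

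Tables were joined on the feature identifier with Python 3 (pandas). Differences were taken as log2 of (FPKM + 0.1), with a limit of 2-fold. Features listed at 0 in either group compared received no fold and were counted apart. The background was every feature with at least 0.5 FPKM in 1 or more of the 4 groups and above 0 in both groups compared. Strand was inferred where start positions along a chromosome stepped back by over 1000000 bases. Overlaps were taken from genes and exons of GENCODE M21 (GRCm38). They were searched with protein-coding, small RNA, immunoglobulin or T cell receptor segment and pseudogene annotations, and not with other lncRNA genes. Promoters were taken from RefSeq (GRCm38.p6), matched by symbol for 122 of 314 genes. Named were the 10 members of highest mean, the 8 of largest rise and fall per comparison past 2-fold and 0.5 FPKM or more in the larger value, members of fixed lists and those next to the limit. The counting code was tested on simulated data. Members, lists and rules were chosen with earlier results of these data known. Other pseudocounts, filters, fold limits, a centring, 1 feature or a sum per gene and 1 strand were tried as alternatives.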

Additional observations from a re-analysis of the deposited data

How the results depend on the processing

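Counts of members past 2-fold are given as higher and lower with diet, then with Mafg LNA, then with LincIRS2 LNA, and were 28 and 12, 28 and 17, and 9 and 8 as reported. The share of all features past the limit is not given for the other settings, so those counts cannot be set against a background. A pseudocount of 1 FPKM gave 6 and 1, 2 and 5, and 1 and 3, and one of 0.01 FPKM gave 17 higher with LincIRS2 LNA. With no filter on low values they were 49 and 23, 61 and 29, and 22 and 13. With at least 1 FPKM in 1 or more groups they were 10 and 7 and then 13 and 8, with 5 higher with LincIRS2 LNA. A fold limit of 1.5 gave 63 and 24, 54 and 41, and 33 and 16, and a limit of 3 gave 13 and 1, 8 and 9, and 3 and 3. Features on the gene's strand alone gave 10 higher with diet, 12 and 2 with Mafg LNA, and 3 lower with LincIRS2 LNA. With 1 feature per gene 11 were lower with Mafg LNA, and with features of a gene summed, chosen after the values were seen, 5 were lower with LincIRS2 LNA. The median with Mafg LNA was -0.02 and became 0.0217 when centred on protein-coding features. The other 44 values stayed within 1.5 times of the reported count or 0.1 of the reported median. The causes were not tested beyond what each setting itself removes. Most members lie below 1 FPKM, where the pseudocount sets much of a difference, and the depth behind these values is unknown. No paired analysis was possible because each group was deposited as 1 pooled value, and leaving out single livers was not possible for the same reason.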
